A study of Homo sapiens with 12 samples.

Results

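The genes examined were the 9 factors that carry out nonsense-mediated decay (NMD) in human cells: UPF1, UPF2, UPF3A, UPF3B, SMG1, SMG5, SMG6, SMG8 and SMG9. They were chosen by name from the known pathway, with earlier results of these data known, and all 9 were found among the 35579 genes of the files. WM-266-4, a human melanoma cell line, carried a stable lentiviral knock-down of TYRO3, a receptor tyrosine kinase, in every group, was grown under puromycin, and was transfected with a pEZY-myc-his plasmid and starved of serum overnight. By the labels the plasmid encoded GFP (the control), TYRO3 wild-type (WT), TYRO3 ΔGS (I449A), a form that resists gamma-secretase, or TYRO3 ΔADAM (P408A, L409P and G419P), a form that resists shedding of the ectodomain. The study's own text calls the control a plasmid without an insert, and whether the control cells made GFP was not settled here. Each of the 4 groups had 1 library of polyadenylated RNA in each of 3 experiments, which gives 12 libraries. The transfected pools express TYRO3 from a plasmid on top of the knock-down of the cell's own gene, in 1 cell line, so all values describe that setting. In such bulk samples fewer cells with an mRNA and less of it per cell cannot be told apart.

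NMD removes mRNAs on which translation ends too early. At such a stop the helicase UPF1 meets the release factors, and UPF2 with UPF3B or UPF3A links it to the exon junction complex that splicing left downstream. The kinase SMG1, held in check by its subunits SMG8 and SMG9, then phosphorylates UPF1, and phosphorylated UPF1 binds the endonuclease SMG6 and the adaptor SMG5. The mRNAs of several of these factors are themselves known substrates of the pathway, which ties their levels to its activity. The comparisons here address whether their mRNA levels, their isoforms, or transcripts that the pathway degrades differed between cells with TYRO3 and control cells, and between the cleavable and the cleavage-resistant forms.

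The genes lie on several chromosomes of GRCh38, in the annotation of GENCODE 29. UPF1 is on chromosome 19 from 18831938 to 18868236, UPF2 on chromosome 10 from 11920022 to 12043170, UPF3A on chromosome 13 from 114281584 to 114305817, and UPF3B on chromosome X from 119805311 to 119852998. SMG1 is on chromosome 16 from 18804853 to 18926454, and its subunit genes SMG8 and SMG9 are on chromosome 17 from 59209400 to 59215247 and on chromosome 19 from 43727992 to 43754990. SMG5 is on chromosome 1 from 156249224 to 156282825 and SMG6 on chromosome 17 from 2059839 to 2303771.

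An NMD substrate is recognised by where its stop codon lies. Among the 9 genes, 3 have a transcript that the annotation marks with the biotype nonsense_mediated_decay, namely SMG1-214, SMG8-205 and SMG9-206. The last 30 coding bases of these transcripts are shown with the stop codon in capitals, because the position of the stop is what sets them apart from the main protein-coding transcript of the same gene, shown after each.
SMG1-214: gcagacaatgatgaaggccatggtcatTAG
SMG1-202: ctgtatgaaggttggacagcctgggtgTGA
SMG8-205: tttcactcattacctaaatcaggtagcTAA
SMG8-201: cgtggggttcttaaggcagtaacacaaTAA
SMG9-206: tttgccccaccctgccacatcctgcatTGA
SMG9-211: cacacgatcctcaccgagaagaactggTAA
The stop of SMG1-214 is at chr16:18868347-18868349 on the minus strand, in exon 9 of 10, and 157 bases before the last exon junction. The stop of SMG8-205 is at chr17:59211816-59211818 on the plus strand, in exon 1 of 3, and 358 bases before the last junction. That of SMG9-206 is at chr19:43740059-43740061 on the minus strand, in exon 4 of 7, with 3 junctions behind it and 568 bases before the last. The stops of SMG1-202, SMG8-201 and SMG9-211 are in the last exon, exon 63 of 63, 4 of 4 and 13 of 13.

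Splicing also adds or skips a coding segment in 3 of the UPF genes, and these segments are shown because they distinguish the isoforms described here. Capitals mark the segment and small letters the 12 coding bases on either side.
UPF1-207: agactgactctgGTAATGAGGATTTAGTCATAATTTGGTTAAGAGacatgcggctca
UPF3A-202: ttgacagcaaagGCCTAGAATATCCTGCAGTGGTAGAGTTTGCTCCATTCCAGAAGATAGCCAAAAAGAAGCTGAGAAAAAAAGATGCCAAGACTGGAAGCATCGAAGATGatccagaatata
UPF3B-201: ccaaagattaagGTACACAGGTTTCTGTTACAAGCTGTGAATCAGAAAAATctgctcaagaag
The UPF1 segment of 33 bases, at chr19:18853072-18853104 on the plus strand, comes from an alternative splice site and adds 11 residues to the regulatory loop of the helicase, giving 1129 residues in UPF1-207 against 1118 in UPF1-201. In UPF3A a whole exon of 99 bases, at chr13:114286302-114286400 on the plus strand, is in UPF3A-202 (476 residues) and not in UPF3A-201 (443 residues). In UPF3B a whole exon of 39 bases, at chrX:119840646-119840684 on the minus strand, is in UPF3B-201 (483 residues) and not in UPF3B-202 (470 residues).

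The files held estimated counts and TPM values, which scale each transcript by its length and each library to the same total, and counts were summed per gene. The total per library was 4008293 in the control library of experiment 1 and between 18365999 and 38184838 in the other 11. TYRO3 was between 47.3 and 56.6 CPM (counts per gene relative to the TMM-scaled library size) in the 3 control libraries and between 1181 and 3694 CPM in the 9 libraries with a TYRO3 plasmid, which separated the control from the TYRO3 libraries as labelled. The 3 forms of TYRO3 overlapped in level, and which form a library carried was not tested. All 8 melanocytic markers were detected in every library. SOX10, PMEL, MITF and DCT were at 74.5 CPM or more and S100B between 27.7 and 71.7 CPM, whereas MLANA was between 6.26 and 27.6 CPM, TYR between 6.76 and 17.5 CPM and TYRP1 at most 3.24 CPM. Of the markers of leukocytes, epithelium, endothelium and fibroblasts, CD68 and LUM reached 36.5 and 78.1 CPM and the other 8 stayed at or below 2.02 CPM. Besides the shallow control library, the ΔGS library of experiment 3 stood apart by transcript length. Its protein-coding genes over 8 kb had a median log2 CPM 0.60 below the mean of the other 3 libraries of its experiment, and those under 1 kb a median 0.41 above it.

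All 9 factors were expressed in every library, and their levels were compared on the TPM scale because it accounts for length. SMG5 was highest, with a median of 96.2 TPM and a range from 84.6 to 106 TPM over the 12 libraries. SMG9 followed with a median of 51.6 TPM, UPF1 with 46.0, SMG8 with 37.1, UPF3A with 33.7 and SMG1 with 30.5 TPM. SMG6 had a median of 21.2 TPM, UPF3B of 18.3 and UPF2, the scaffold between UPF1 and UPF3, of 16.6 TPM. SMG5 exceeded SMG9 in 12 of 12 libraries without overlap of their ranges, whereas the ranges of every other pair of neighbours in this order overlapped. The place of SMG9 rests on short transcripts with a retained intron, of which SMG9-210, with 538 bases, made up 40.3% of its TPM. Its main protein-coding transcript, SMG9-211, had a mean of 14.96 TPM, below the 28.9 TPM of UPF1-201, the 34.7 TPM of SMG8-201 and the 19.8 TPM of SMG1-202. SMG8 and UPF3A kept their order in 9 of 12 libraries, and so did UPF3A and SMG1.

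Of the 9 factors, 0 were called in WT, 0 in ΔGS and 0 in ΔADAM TYRO3 against control, where a gene was called if edgeR's quasi-likelihood test gave an adjusted p up to 0.05 and the change exceeded 1.5-fold. The share of all 15098 tested genes that was called was 0.0397% in WT, 0.457% in ΔGS and 1.11% in ΔADAM TYRO3 against control. For the mean of the 3 TYRO3 groups against control, 0 of 9 factors and 3.31% of all genes were called. In each of these 4 comparisons, 1 of 9 factors, SMG9, had an unadjusted p under 0.05 in edgeR. Of all 15098 genes, 2300 had such a p in WT, 2895 in ΔGS, 3087 in ΔADAM and 3655 in the mean of the TYRO3 groups. A low unadjusted p was thus common among all genes and does not set SMG9 apart from them. DESeq2 called 0 of the 9 as well. The fold changes were small and bounded. The median log2 fold change of the 9 factors in the mean of the TYRO3 groups was -0.04 (all genes, 0.00), and the 95% interval of all 9 lay within a 1.5-fold change in either direction, against 58.7% of the intervals of all genes tested. Among the partner and target genes described below this share was 90.9% and 58.8%. Genes of like expression level were not compared. Of the 9 intervals, 8 lay within these bounds in WT, 7 in ΔGS and 9 in ΔADAM TYRO3 against control, and the exceptions were SMG9 in WT and SMG9 and SMG1 in ΔGS. These 4 comparisons share the same control libraries and are not independent of each other.

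**Figure D1:**
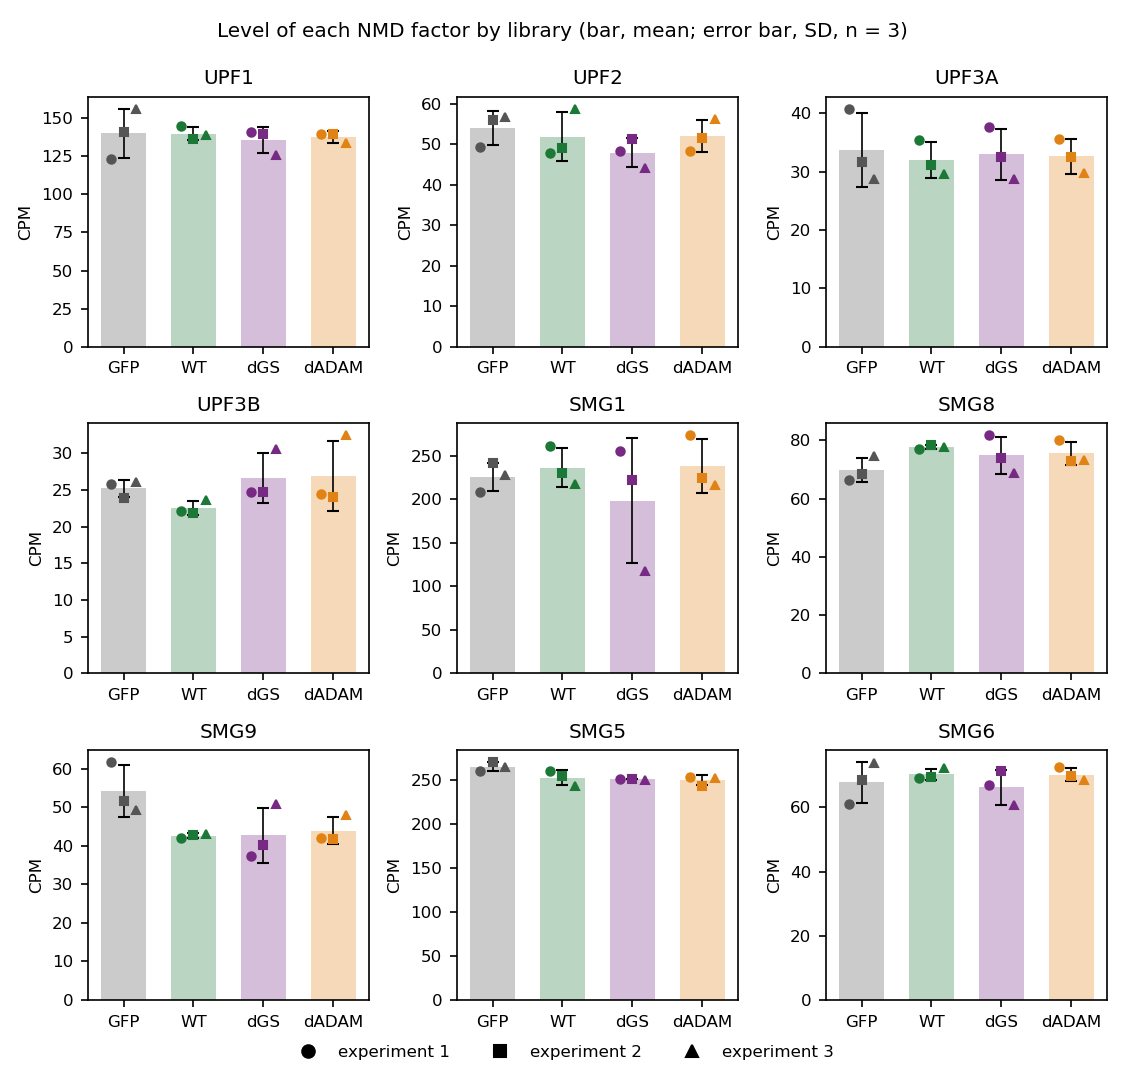
Level of each of the 9 NMD factors in CPM (vertical axis, from 0) by group, where dGS and dADAM stand for ΔGS and ΔADAM, bars for the mean, error bars for the SD (n = 3) and symbols for the experiment. The control library of experiment 1 has the highest SMG9 level, at 61.8 CPM, and the ΔGS library of experiment 3 the lowest SMG1 level, at 117.8 CPM.

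UPF1, the helicase at the centre of the pathway, was at 123.3, 141 and 156 CPM in the control libraries of experiments 1, 2 and 3. It was at 145, 136 and 139 CPM with WT, at 141, 139.9 and 126 CPM with ΔGS, and at 139.8, 139.8 and 133 CPM with ΔADAM TYRO3. The control libraries spanned the values of all other groups, so the groups overlapped throughout. The log2 fold change in the mean of the TYRO3 groups was -0.03 (SE 0.08, adjusted p = 0.89, edgeR).

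UPF2 was at 53.9 ± 4.12 CPM (SD, n = 3) in control, 51.8 ± 6.05 with WT, 47.9 ± 3.57 with ΔGS and 52.0 ± 3.98 with ΔADAM TYRO3. It was lower than the control library of the same experiment in 8 of 9 libraries, by at most 0.36 on the log2 scale in the ΔGS library of experiment 3, where genes of 4 to 8 kb had a median 0.32 below the other libraries of the experiment. UPF3B, the main UPF3 protein of somatic cells, was at 25.8, 23.9 and 26.0 CPM in control and at 22.1, 21.9 and 23.7 CPM with WT TYRO3. The WT libraries were thus all just below the lowest control library, and the log2 fold change was -0.15 (SE 0.13, adjusted p = 0.66, edgeR). UPF3B reached 26.6 ± 3.38 CPM in the ΔGS and 26.9 ± 4.77 CPM in the ΔADAM group (SD, n = 3), and WT was 0.24 lower than their mean on the log2 scale (SE 0.12, unadjusted p = 0.057, adjusted p = 1.00, edgeR). UPF3A, the weaker paralogue of UPF3B, was at 40.8 CPM in the control library and between 35.4 and 37.6 CPM in the other libraries of experiment 1. It was between 31.1 and 32.5 CPM in experiment 2 and between 28.7 and 29.7 CPM in experiment 3. Its values separated by experiment, in that order, and not by group, and its log2 fold change in the mean of the TYRO3 groups was -0.04 (SE 0.08).

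SMG1, the kinase that phosphorylates UPF1, was at 208.5, 241 and 228 CPM in control and at 262, 230.2 and 218 CPM with WT TYRO3. With ΔADAM TYRO3 it was at 274, 224 and 217 CPM, and with ΔGS TYRO3 at 255, 222 and 118 CPM. Apart from the ΔGS library of experiment 3, the groups overlapped. The log2 fold change of ΔGS against control was -0.22 (SE 0.20, adjusted p = 0.61, edgeR), and without that library it was 0.04 (adjusted p = 0.87). SMG1 has the longest mRNA of the 9 genes, with a mean transcript length of 10976 bases weighted by abundance, and in that library it was 0.91 below the mean of the other 3 libraries of experiment 3 on the log2 scale, beside the median of 0.60 below for genes over 8 kb.

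**Figure D2:**
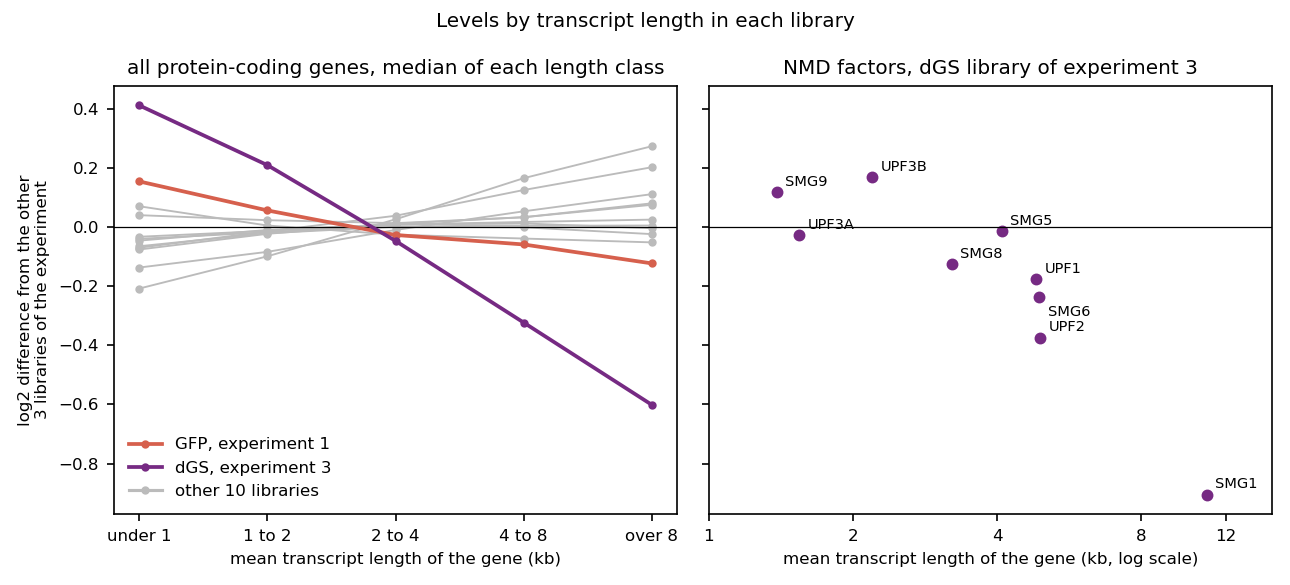
Left, median log2 difference of each library from the other 3 of its experiment (vertical axis) for protein-coding genes in 5 classes of mean transcript length (kb), and right, the same difference for the 9 NMD factors in the ΔGS library (dGS) of experiment 3 against length on a log axis. The ΔGS library of experiment 3 falls from 0.41 to -0.60 with length, and SMG1, the longest factor, is lowest in it at -0.91.

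SMG1 also has near-identical copies in the genome, and reads that fit both can be divided wrongly between them, so that its level is uncertain. The 7 annotated SMG1 pseudogenes together took between 26.2% and 32.8% of the counts assigned to SMG1 and the pseudogenes. Their sum was between 77.2 and 124 CPM in 11 libraries and 44.6 CPM in the ΔGS library of experiment 3, so the copies were low in the same library as SMG1.

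SMG8 and SMG9 hold SMG1 inactive, and their log2 fold changes against control were of opposite sign, though neither was called. SMG8 was at 66.5, 68.5 and 74.6 CPM in control and at 77.0, 78.5 and 77.6 CPM with WT TYRO3, and these 2 groups did not overlap. Its log2 fold change was 0.15 (SE 0.09, adjusted p = 0.47, edgeR) in WT and 0.11 (SE 0.07, adjusted p = 0.37) in the mean of the TYRO3 groups, and ΔGS and ΔADAM TYRO3 overlapped with control, with 74.8 ± 6.48 and 75.5 ± 4.06 CPM (SD, n = 3).

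SMG9 showed the largest difference of the 9 factors. It was at 61.8, 51.6 and 49.3 CPM in the control libraries of experiments 1, 2 and 3. It was at 42.0, 42.9 and 43.1 CPM in the WT, at 37.4, 40.1 and 50.8 CPM in the ΔGS and at 42.1, 41.8 and 48.1 CPM in the ΔADAM libraries. It was lower than the control library of the same experiment in 8 of 9 libraries, the exception being ΔGS TYRO3 in experiment 3, and the WT and ΔADAM groups did not overlap with control. How many of all genes lack such an overlap was not counted, for SMG9 or for the other factors. SMG9 has a mean transcript length of 1387 bases weighted by abundance. In that ΔGS library it was 0.12 above the mean of the other libraries of its experiment (log2). Genes of 1 to 2 kb had a median 0.21 above it there. The log2 fold change was -0.33 (SE 0.13, adjusted p = 0.26, edgeR) in WT, -0.33 (SE 0.13, adjusted p = 0.20) in ΔGS and -0.29 (SE 0.13, adjusted p = 0.23) in ΔADAM TYRO3.

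SMG9 had a log2 fold change of -0.32 in the mean of the TYRO3 groups (SE 0.11, adjusted p = 0.091, edgeR). In the paired fit with a term for each experiment (replicate block) it was -0.31 with an adjusted p of 0.049 in edgeR, a difference of less than 1.5-fold and therefore not called. In that fit 0 of 9 factors and 5.68% of all genes were called, and by the adjusted p alone it was 1 of 9 factors and 15.8% of all genes, beside 0 of 9 and 6.53% without the block. The value rested in part on 1 control library. Without the control library of experiment 1, the shallowest, which held 235 counts of SMG9, the log2 fold change was -0.17 (adjusted p = 0.54), and without the ΔGS library of experiment 3 it was -0.36 (adjusted p = 0.022, edgeR). Between the forms of TYRO3, the log2 difference of SMG9 was -0.02 (SE 0.11) for WT against both resistant forms and -0.04 (SE 0.13) for ΔGS against ΔADAM TYRO3.

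Of the factors that bind phosphorylated UPF1, SMG5 had the steadiest level, with a 1.11-fold range from 243 to 271 CPM over the 12 libraries. It was at 265 ± 5.02 CPM (SD, n = 3) in control, 253 ± 8.61 with WT, 251 ± 0.361 with ΔGS and 249.8 ± 5.47 with ΔADAM TYRO3. The highest values with WT, ΔGS and ΔADAM TYRO3, 260.1, 251.3 and 253.8 CPM, were below the lowest control value of 260.6 CPM. SMG5 was lower than the control library of the same experiment in 9 of 9 libraries, yet by no more than 0.15 on the log2 scale, and the log2 fold change in the mean of the TYRO3 groups was -0.08 (SE 0.06, adjusted p = 0.45, edgeR). SMG6, the endonuclease, was at 67.7 ± 6.38 CPM in control and at 70.2 ± 1.76, 66.2 ± 5.42 and 70.2 ± 2.10 CPM with WT, ΔGS and ΔADAM TYRO3 (SD, n = 3), and its log2 fold change in the mean of the TYRO3 groups was 0.02 (SE 0.08).

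**Figure D3:**
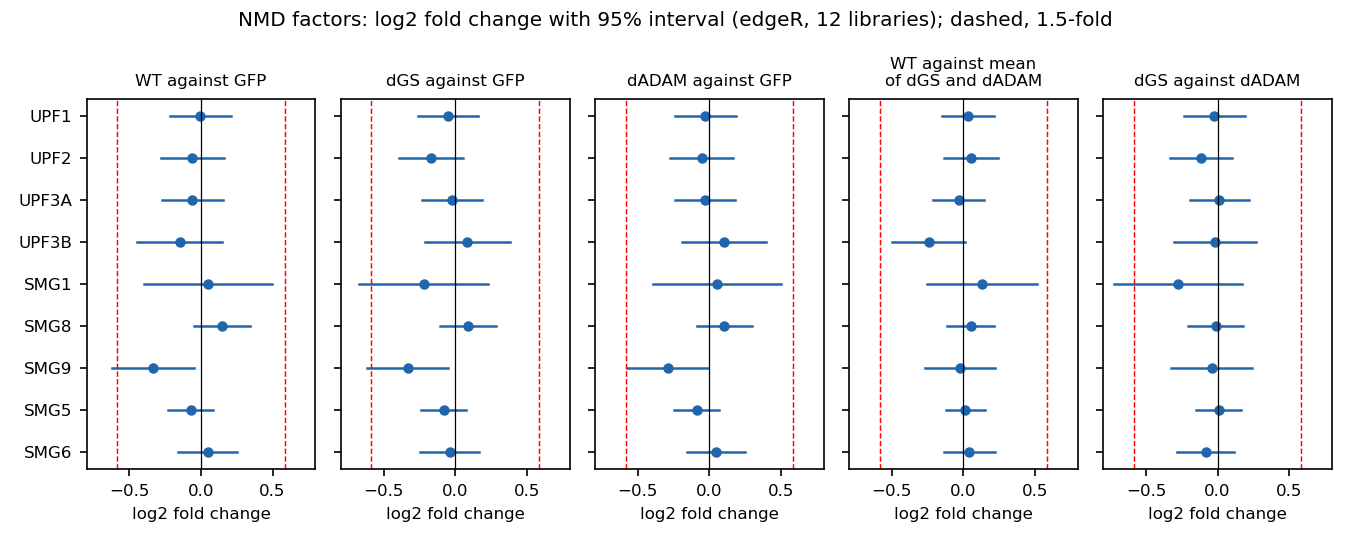
Log2 fold change (points, horizontal axis) of the 9 NMD factors with the 95% interval (lines) in 5 comparisons from the edgeR fit of 12 libraries, with dashed lines at a 1.5-fold change. SMG9 lies left of 0 in the 3 comparisons with GFP, between -0.33 and -0.29, and SMG1 has the widest intervals.

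The cleavable and cleavage-resistant forms of TYRO3 were then compared. For WT against the averaged resistant forms, 0 of 9 factors and 0% of all genes were called, 0 factors had an unadjusted p under 0.05, and the intervals of all 9 lay within a 1.5-fold change. In ΔGS against ΔADAM TYRO3, 0 of 9 factors and 0% of all genes were called, 0 factors had an unadjusted p under 0.05, and 8 of the 9 intervals lay within these bounds. The exception was SMG1, with a log2 difference of -0.28 and an interval from -0.72 to 0.17, which was -0.02 without the ΔGS library of experiment 3. DESeq2 called 0 of the 9 in either comparison. In each, 119 of all 15098 genes had an unadjusted p under 0.05 in edgeR, fewer than that threshold gives where no gene differs. With the replicate block it was 237 for WT against both resistant forms and 216 for ΔGS against ΔADAM TYRO3. In that fit 1 and 0 of the 9 factors had such a p. The absence of calls therefore does not show that the forms were alike.

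Among the libraries the factors varied in different directions. Log2 CPM was centred within each experiment. Pearson's r of a factor with the mean of the other 8 was then 0.85 for UPF2, 0.58 for SMG1, 0.53 for SMG6, 0.43 for UPF1 and 0.33 for SMG5. It was -0.03 for SMG8, -0.07 for UPF3A, -0.35 for SMG9 and -0.41 for UPF3B. The points are 12 libraries that share their experiments, and the mean of the 9 factors was 0.13 below its experiment in the ΔGS library of experiment 3 and at most 0.071 from it in the others. The genes most like this mean were UBE3A, RAB11FIP2, ATF2, PIK3CA and KLHDC10, with r between 0.96 and 0.98 over the 12 libraries, and all 5 were between 0.32 and 0.57 lower (log2) in the ΔGS library of experiment 3 than in the others of that experiment. Without that library, r of these 5 genes was between 0.87 and 0.93. For the 9 factors r was not computed without it, and the part of transcript length in their values was not tested.

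Protein-coding transcripts carried at least 63.7% of the counts of the 8 genes other than UPF3A. The isoforms with a segment or an NMD biotype, and those of UPF3A, SMG6 and SMG9 that are not protein coding, were chosen after their values were seen. The main protein-coding transcripts had means of 85.0 ± 5.41 TPM for SMG5-201, 34.7 ± 4.54 for SMG8-201, 28.9 ± 3.96 for UPF1-201, 19.8 ± 4.07 for SMG1-202 and 16.1 ± 3.15 TPM for SMG6-201 (SD over 12 libraries). UPF3B-202 had 15.3 ± 2.37, UPF2-202 14.97 ± 1.79, SMG9-211 14.96 ± 2.29 and UPF3A-202 2.97 ± 0.932 TPM. In UPF3A, protein-coding transcripts held only between 12.9% and 38.2% of the counts. Its most abundant form was UPF3A-204, a processed transcript without an annotated coding sequence, at 11.98 ± 1.74 TPM. In SMG9, retained-intron transcripts held between 19.9% and 31.7% of the counts, and the short SMG9-210 had the highest TPM, between 15.1 and 35.3.

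SMG9-210 was at 35.3, 24.6 and 24.6 TPM in the control libraries and at 15.1, 16.7 and 22.6 TPM with WT TYRO3. The protein-coding SMG9-211 was at 16.2, 18.0 and 16.8 TPM in control and at 12.7, 14.9 and 15.6 TPM with WT TYRO3. Both were lower with WT TYRO3 in each experiment. SMG9-210 was at 16.0, 19.8 and 24.9 TPM with ΔGS and at 18.8, 21.6 and 26.1 TPM with ΔADAM TYRO3, and SMG9-211 was at 11.2, 12.8 and 16.83 TPM and at 14.96, 11.97 and 17.45 TPM. With these forms both transcripts were below control in experiments 1 and 2 and at or above it in experiment 3. SMG9-210 has 538 bases. Genes under 1 kb had a median log2 difference from the other libraries of experiment 3 of 0.41 in its ΔGS and -0.14 in its ΔADAM library. The part of length in these values was not tested. The log2 fold change with TYRO3 (mean of the 3 groups) was -0.52 (SE 0.26, adjusted p = 0.69, edgeR) for SMG9-210 and -0.28 (SE 0.18, adjusted p = 0.77) for SMG9-211.

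The long-loop isoform UPF1-207 was estimated at 0.0012 TPM in the control library of experiment 1 and between 5.25 and 14.4 TPM in the other 11. Its share of the sum of UPF1-207 and UPF1-201 was 27.8% and 21.8% in the control libraries of experiments 2 and 3, and 25.4%, 13.2% and 23.5% with WT TYRO3. It was 23.8%, 35.5% and 32.5% in the ΔGS libraries and 24.0%, 36.1% and 25.6% in the ΔADAM libraries. In experiments 2 and 3 the share was higher with both cleavage-resistant forms than with WT TYRO3 and in experiment 1 it was lower with both. The log2 difference of UPF1-207 between WT and the mean of ΔGS and ΔADAM was -0.35 with an interval from -2.22 to 1.52 (adjusted p = 1.00, edgeR). The control library of experiment 1, which had 469 counts of UPF1 in all, assigned all but 0.0184 counts of these isoforms to UPF1-201, and the division of reads between such alike isoforms is an estimate.

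The longer isoform UPF3B-201 made up 0%, 9.66% and 10.6% of the sum of UPF3B-201 and UPF3B-202 in control, 14.1%, 19.4% and 6.72% with WT, 5.92%, 9.02% and 4.47% with ΔGS and 13.9%, 8.64% and 4.41% with ΔADAM TYRO3. UPF3A-202, which keeps the exon of 99 bases, was between 34.1% and 68.7% of its pair in 10 libraries, and the control and WT libraries of experiment 1 had 100% and 98.7%. The UPF3B share overlapped between all groups. The UPF3A share lay between 34.1% and 43.6% with ΔADAM TYRO3, below control (45.5% or more) and ΔGS (53.9% or more) but not below WT TYRO3 (35.8% or more), and it was not tested. In the ΔGS library of experiment 3, SMG6-201 was at 7.47 TPM, its lowest, and the processed transcript SMG6-207 was at 12.5 TPM, its highest, against at most 6.41 TPM in the other 11 libraries. SMG6-201 has 5974 bases and SMG6-207 has 2426. In this library, which stood apart by length, genes of 4 to 8 kb had a median log2 difference of -0.32 and those of 2 to 4 kb of -0.05. The part of length in these 2 values was not tested. Of 95 transcripts of the 9 genes, 45 passed the filter on low counts, and 0 of these were called in any comparison by edgeR, where 0.00578% of all 69182 transcripts were called in the mean of the TYRO3 groups. At an unadjusted p under 0.05 there was at most 1 transcript in each comparison. In the mean of the TYRO3 groups it was UPF3A-203, a processed transcript of 748 bases, and DESeq2 called UPF3A-203 in ΔADAM against control only.

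**Figure D4:**
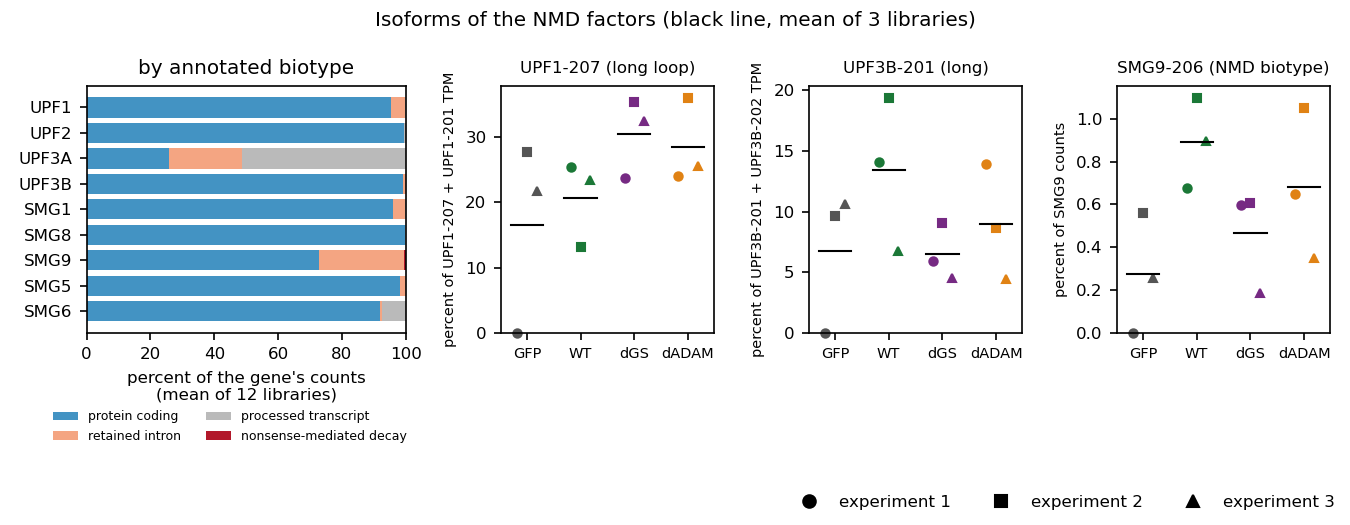
Left, share of each gene's counts by annotated biotype (mean of 12 libraries), and right, share of UPF1-207 and of UPF3B-201 in the TPM of the isoform pair and of SMG9-206 in SMG9 counts, in percent, per library (symbols, experiments; black lines, means of 3 libraries; dGS and dADAM, ΔGS and ΔADAM). All 3 shares are at or near 0 in the control library of experiment 1, and SMG9-206 reached at most 1.10%.

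The transcripts with an early stop shown above were rare. SMG1-214 had counts in 2 of 12 libraries and at most 0.0687% of the SMG1 counts, and SMG8-205 had counts in 4 libraries and at most 0.216% of the SMG8 counts. SMG9-206 had counts in 11 of 12 libraries and a share of 0%, 0.562% and 0.258% of the SMG9 counts in control. The share was 0.677%, 1.10% and 0.899% with WT, 0.599%, 0.609% and 0.187% with ΔGS, and 0.65%, 1.05% and 0.350% with ΔADAM TYRO3. The WT libraries were above all control libraries, and the other groups overlapped with control. These shares rested on at most 10.8 counts. The share of 0 in the control library of experiment 1, out of 235 counts, allows a share of up to 1.28%, so that no difference from it was detectable at this depth. With a mean of 6.12 counts SMG9-206 was under the minimum of 10 set for the test of the share. In the fit without that minimum, the log2 ratio of NMD-biotype to other counts of SMG9 was 1.48 higher in WT than in control (SE 0.63, unadjusted p = 0.042, adjusted p = 0.94, limma).

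Across all genes the share of counts on NMD-biotype transcripts was 4.01% in the control library of experiment 1 and between 3.36% and 3.51% in the other 11. It was 3.58% ± 0.37 in control, 3.45% ± 0.04 with WT, 3.46% ± 0.05 with ΔGS and 3.44% ± 0.07 with ΔADAM TYRO3 (SD, n = 3). In experiment 2 the share was 3.36% in control and 3.43%, 3.43% and 3.49% with WT, ΔGS and ΔADAM TYRO3. In experiment 3 it was 3.375% in control and 3.43%, 3.43% and 3.36% with these forms. Of 3415 genes with enough counts of both classes, 0% were called for a changed share in the mean of the TYRO3 groups against control by limma, with 243 at an unadjusted p under 0.05, and 0 were called in each of the other 5 comparisons, with between 71 and 208. The median log2 ratio over these genes was 0.10 lower in the mean of the TYRO3 groups than in control. It was lower by 0.03 in WT, by 0.13 in ΔGS and by 0.05 in ΔADAM TYRO3, and between the forms it was 0.05 for WT against both resistant forms and -0.07 for ΔGS against ΔADAM TYRO3. These medians were not computed without the control library of experiment 1. None of the 9 factors was among the 3415 genes.

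The partners of the NMD factors were described by 22 genes of translation termination, decapping, the exon junction complex and the regulation of UPF1 and SMG1, all of which were measured. In the mean of the TYRO3 groups against control, 1 of 22 rose and 0 fell, beside 3.31% of all genes called. Their median log2 fold change was 0.09. The gene was GSPT2, a paralogue of the release factor gene GSPT1. GSPT2 was low, at 1.58, 1.99 and 1.67 CPM in control, 4.34, 3.48 and 2.66 CPM with WT, 3.36, 2.78 and 2.58 CPM with ΔGS and 3.36, 2.60 and 3.34 CPM with ΔADAM TYRO3. All 9 values were above the 3 of control, and the log2 fold change was 0.76 (SE 0.19, adjusted p = 0.041, edgeR). GSPT2 was named because of this call, so the order of its values is no separate support. The lowest control value came from 6 counts. The call was lost, leaving 0 of 22 partners, without any 1 of the 3 control libraries, the 3 TYRO3 libraries of experiment 1, the WT or ΔGS library of experiment 2 or the ΔADAM library of experiment 3. GSPT1, the main form of the release factor, had a log2 fold change of -0.04 (SE 0.08). Of the 22 partners, 0 were called in each of WT, ΔGS and ΔADAM TYRO3 against control and in the 2 comparisons between forms.

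**Figure D5:**
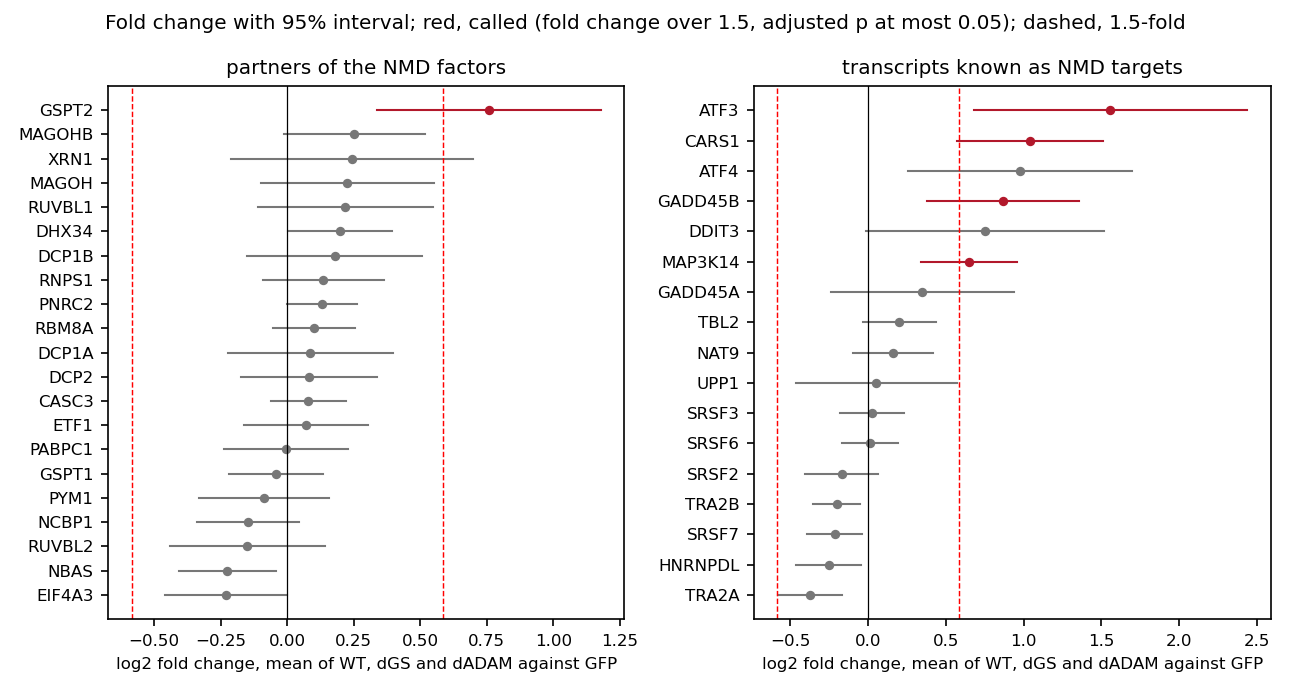
Log2 fold change in the mean of the 3 TYRO3 groups against control (horizontal axis, points) with the 95% interval (lines). Left, partners (1 of the 22 is not drawn), and right, 17 genes with transcripts known as NMD targets, each gene summed over its transcripts. Red marks a call and dashed lines a 1.5-fold change. GSPT2 on the left and ATF3, CARS1, GADD45B and MAP3K14 on the right were called, all higher, and 0 were called lower.

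Transcripts known to be degraded by NMD were described by 25 genes, of which 17 were measured and the 8 non-coding genes were not analysed here. Each gene was tested as the sum of all its transcripts, which does not separate the degraded transcripts from the others. In the mean of the TYRO3 groups against control, 4 of 17 rose and 0 fell, where 1.79% of all genes were called higher. With the replicate block 5 of 17 rose, where 3.48% of all genes were called higher. The median log2 fold change of the 17 was 0.16 (all genes, 0.00). Those that rose were CARS1, which encodes a cysteinyl-tRNA synthetase, MAP3K14, a kinase of the NF-kappaB pathway, and the stress genes ATF3 and GADD45B. ATF4, CARS1 and ATF3 are also known to be induced in the integrated stress response, and its part in these values was not tested.

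CARS1 was at 89.2, 98.5 and 139.9 CPM in control, at 244, 156 and 228 CPM with WT, at 209, 195 and 304 CPM with ΔGS and at 230.0, 180.3 and 282 CPM with ΔADAM TYRO3. The groups did not overlap with control, and the log2 fold change was 1.04 (SE 0.21, adjusted p = 0.022, edgeR). MAP3K14 was at 20.1 ± 2.12 CPM in control and at 29.2 ± 5.75, 34.9 ± 6.004 and 34.3 ± 8.31 CPM with WT, ΔGS and ΔADAM TYRO3 (SD, n = 3), a log2 fold change of 0.65 (SE 0.14, adjusted p = 0.027, edgeR). ATF3 and GADD45B were low, with at most 3.69 and 2.89 CPM in control, and their log2 fold changes were 1.56 (SE 0.40, adjusted p = 0.043) and 0.87 (SE 0.22, adjusted p = 0.043, edgeR). Their lowest counts in a control library were 5 and 9, so the fit with at least 10 counts in every library left both out. ATF3 was 2.868 to 3.085 above control (log2) in experiment 1 and 0.453 to 1.932 above it in experiments 2 and 3. All 4 were higher than the control library of the same experiment in 9 of 9 libraries. These genes were named because they were called in the same libraries, and the 9 differences share their control libraries. Their common direction, and the lack of overlap of CARS1, are therefore no separate support for the calls. The count of 4 was 0 without the control library of experiment 1 or of experiment 2, and 2 without that of experiment 3. It was 1 without any of the 3 TYRO3 libraries of experiment 1, 2 without the WT library of experiment 2 or the ΔADAM library of experiment 3, and 3 or 4 without any of the others.

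With the replicate block ATF4 was called too, with a log2 fold change of 0.91 (SE 0.18, adjusted p = 0.0091, edgeR). In that fit 1 of 17 was called in WT, CARS1, and 4 each were called in ΔGS and ΔADAM TYRO3 against control, namely CARS1, MAP3K14, ATF3 and ATF4, where the fit without the block called 0 in each. The share of all genes called with the block was 2.35%, 4.69% and 5.19% in these comparisons. The splicing factor genes of the list, also summed over all their transcripts, had log2 fold changes between -0.37 and 0.02. TRA2A, chosen like SRSF3, SRSF6 and GSPT1 after its values were seen, had a log2 fold change of -0.37 (SE 0.09, adjusted p = 0.040, edgeR), which is under 1.5-fold and not called. SRSF3 and SRSF6 were at 0.02 (SE 0.09) and 0.01 (SE 0.08). Between the forms of TYRO3, 0 of the 17 were called in WT against both resistant forms and 0 in ΔGS against ΔADAM TYRO3 by edgeR.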

How the data were processed

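RNA-seq of 12 libraries was analysed from the deposited kallisto tables. Per the labels and the study's methods, polyadenylated RNA was sequenced on stranded libraries, the authors trimmed reads with PRINSEQ and Trimmomatic 0.33, checked them with FastQC 0.11.9, and obtained with kallisto 0.46.0 the estimated count (expected count) and TPM of each transcript of Ensembl 96 (GRCh38). The batch correction and DESeq2 test of the study come after these deposited files. Groups and experiments were taken from the sample labels, and whether the experiments were separate cultures beyond their number is not given in the sources used here, so p-values measure the spread between these libraries.

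Of 188753 transcripts, 169797 matched GENCODE 29 by identifier without version (97.4% to 97.5% of counts). Estimated counts were summed per gene, rounded, filtered with filterByExpr (minimum 10, minimum total 15), scaled by TMM and tested in edgeR 4.0.16 (R 4.3.3) by quasi-likelihood over all 12 libraries. The model held the groups and a batch term that set experiment 1 apart from the other 2, the split that the study corrected on TPM values with batchelor. P-values were adjusted by Benjamini-Hochberg over all genes in each of 6 comparisons. NMD-biotype shares were tested with limma 3.58.1 on the log2 ratio of NMD-biotype to other counts (prior 0.5, means of at least 10 of each). Log2 CPM had a prior of 2. A share of 0 was given the limit of 3 counts, for counting error only. Genes were put in length classes at a mean log2 CPM over 3. Scripts were tested on simulated data, and tables were made with pandas 2.3.3.

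Libraries of 1 experiment are paired by the labels. Their deviations from group means correlated at 0.04 to 0.53 (median 0.29) within experiments and -0.37 to 0.05 between them. The deviations of a group sum to 0 over its libraries. Positive values within experiments therefore push those between them below 0, and the contrast is partly built in. The members, the 22 partners, the 25 targets and the rules were chosen with earlier results of these data known. Named were the 9 members, TYRO3, up to 6 partners and targets each called in any comparison (smallest p first) or otherwise the 3 with the smallest p, the protein-coding transcript of each member with the highest mean TPM, its NMD-biotype transcripts with a mean of at least 0.5 TPM, the summed SMG1 pseudogenes, and the 5 genes most like the members. Other genes and transcripts were chosen after their values were seen. Alternatives were RLE scaling, DESeq2 1.42.0, limma on log2 TPM plus 1 or 0.1, length-scaled counts, other filters, other batch terms, fewer samples, no fold threshold and each library left out. Sequences were read from the GENCODE 29 transcripts. The values of 1 partner are not reported here.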

Additional observations from a re-analysis of the deposited data

How the results depend on the processing

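The 1422 alternative fold changes of the 9 NMD factors all stayed uncalled, and of 696 alternative counts 617 were within 1.5 times the reported count and 79 were not. The largest of these log2 fold changes was -0.48, for SMG9 in WT, so none reached 1.5-fold. Their sign was less steady. In the mean of the TYRO3 groups SMG8 and SMG9 kept their sign in all settings. The other factors did not, such as UPF1, from -0.115 to 0.132, and SMG1, from -0.193 to 0.055. Of the 9 factors, 1 (SMG9) was called in the mean of the TYRO3 groups against control with the replicate block and no fold threshold, against 0 reported. The log2 fold change of SMG9 ranged from -0.45 to -0.17 over 38 settings, with adjusted p from 0.013 to 0.73, and was -0.17 (0.73) in experiments 2 and 3 alone and -0.23 (0.16) without both the control library of experiment 1 and the ΔGS library of experiment 3, which was tried only after seeing the data (with the block, -0.23 and 0.057). The block changed no other call of a factor.

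The share of all genes called moved with the setting too. In WT, ΔGS and ΔADAM TYRO3 against control it was 2.49%, 4.03% and 4.44% with DESeq2, 2.22%, 3.03% and 3.48% with no filter, 2.35%, 4.69% and 5.19% with the block, 3.58%, 8.95% and 10.2% with the block and no fold threshold, and 1.47%, 1.16% and 3.21% with the block without both libraries. In the mean of the TYRO3 groups it was 0.126% with no batch term, and 1 gene in experiments 2 and 3 alone and 1 without both libraries. It was 2.13% and 1.88% with limma on log2(TPM + 1) and log2(TPM + 0.1), 2.49% with length-scaled counts, 3.56% with at least 10 counts in every library (1.57% in ΔADAM), 3.05% with the block without both libraries, and 15.8% with the block and no fold threshold.

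Of the partners, DESeq2 called 1 of 22 in WT TYRO3 against 0 reported, beside the 2.49% of all genes. In the mean of the TYRO3 groups, where 1 was reported, 0 were called with limma on log2(TPM + 1), with length-scaled counts, with at least 10 counts in every library, with no batch term, in experiments 2 and 3 alone and without both libraries, with or without the block, and 0 to 1 with each library left out. Of the targets in WT TYRO3, where 0 were reported, 2 were called with DESeq2, 2 with no filter, and 1 with the block, with the block and no fold threshold, and with the block without both libraries. In ΔGS TYRO3, where 0 were reported, these settings called 4 (DESeq2), 6 (no filter), 4 (block), 4 (block, no fold threshold) and 2 (block without both libraries). In ΔADAM TYRO3, where 0 were reported, they called 4, 5, 4, 6 and 2, with 2 at a minimum of 10 counts in every library and 0 to 3 with each library left out. In the mean of the TYRO3 groups, where 4 were reported, 1 was called with limma on log2(TPM + 0.1), 2 with length-scaled counts, 2 with the minimum of 10 counts, 0 with no batch term, 0 in experiments 2 and 3 alone, 0 without both libraries, 2 with the block without both libraries, 7 with the block and no fold threshold, and 0 to 4 with each library left out.

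For NMD-biotype shares, where 0 genes were reported in each comparison, shares of TPM gave 2 genes in WT, ΔGS, ΔADAM and the mean of the TYRO3 groups. No filter gave 1 in ΔGS, 3 in ΔADAM, 2 in the mean and 1 in ΔGS against ΔADAM. Experiments 2 and 3 alone gave 1 in ΔADAM and 1 in ΔGS against ΔADAM. Leaving out both libraries gave 3 in WT and 2 in ΔGS, in ΔADAM, in the mean and in WT against the resistant forms, and each library left out gave 0 to 2 in WT, ΔGS and the mean, and 0 to 1 in ΔADAM and in ΔGS against ΔADAM. DESeq2 called 1 transcript of the 9 genes in ΔADAM TYRO3. The cause of these changes was not tested. With 3 libraries a group and 4008293 counts in 1 control library, the transcripts with an early stop were too few for a difference to be detectable.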
